A study of Homo sapiens with 4 samples.

Results

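The genes described here are those of the insulin-like growth factor (IGF) binding proteins and the IGF receptors. Chosen by name, they were the binding protein genes IGFBP1 to IGFBP7, the receptor genes IGF1R and IGF2R, and PAPPA, which encodes a protease of the binding proteins. All 10 genes were found by their Ensembl identifiers among the 60279 genes of the count tables, and 9 of them passed the filter on level that left 14269 genes, a mean of at least 1 CPM (counts per 1000000 reads in genes). IGFBP1 did not pass. RNA was sequenced from the triple-negative breast cancer line SUM159, with cells untreated, treated with palbociclib, treated with indisulam, or treated with both drugs (combination), with 1 library for each condition. Palbociclib is an inhibitor of CDK4 and CDK6, kinases of the cell cycle, and indisulam causes degradation of the splicing factor RBM39. The sample labels gave 0.5 µM palbociclib and 2 µM indisulam for 10 days, whereas the text on the series gave 2 µM and 3 µM for 16 h. The methods of the study name HISAT2 for its splicing libraries, whereas the submitters' notes on these libraries name TopHat2, and the dose and duration are given here as labelled. All 4 cultures shared a medium of DMEM/F12 with 10% fetal bovine serum, 1% penicillin and streptomycin, insulin at 5 µg/ml and hydrocortisone at 1 µg/ml. Insulin, which binds the insulin receptor and with lower affinity IGF1R, was therefore present in the untreated culture too. All data are from a single cell line.

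IGF1 and IGF2 are growth factors that signal through IGF1R, a receptor tyrosine kinase, towards the kinases PI3K and AKT. The binding proteins are secreted, hold the IGFs in complexes and so control their access to the receptor, and proteases such as PAPPA cut binding proteins and free the ligand. IGF2R, the mannose-6-phosphate receptor, takes up IGF2 for degradation and sorts lysosomal enzymes. Binding proteins of this family are known members of the secretome of senescent cells, and all of IGFBP1 to IGFBP7 are in the Fridman senescence list used by the study, with IGFBP2, IGFBP4, IGFBP6 and IGFBP7 also in its list of the senescence-associated secretory phenotype. The question asked of these genes was which of them changed besides IGFBP5 when cells received either drug or both.

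The libraries held 12555908 to 16712174 reads in genes. The brackets after a value give its 95% interval from Poisson counting. Ratios between libraries were taken on the log2 scale after adding 1 scaled count, and a gene was called higher or lower when the ratio was at least 2-fold and its interval excluded a ratio of 1. There were no replicates, so no p-value was computed, no difference had a replicate check, and a difference between cultures or sequencing runs cannot be told apart from one between treatments. Transcripts of the receptors that define triple-negative tumours were low for ESR1 (4 to 16 reads per library) and PGR (0 to 3 reads), while ERBB2 read 110 to 143 CPM. VIM, a mesenchymal marker, was at 2643 to 4598 CPM, and CDH1, the epithelial cadherin, was at no more than 1.95 CPM. The keratins KRT8 and KRT18, in contrast to CDH1, were abundant, with a summed level of 601.5 to 787.6 CPM. PECAM1, an endothelial marker, was at 15.2 to 40.9 CPM and was called higher with palbociclib than untreated (2.68-fold). VWF, also an endothelial marker, was at no more than 1.18 CPM. Of the leukocyte markers, CD3E was at 0 reads in every library, which allows up to 0.239 CPM at the lowest depth, and PTPRC was at 11.1 to 17.5 CPM.

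Per kilobase of exon, a scale meant for comparing genes with each other, IGFBP4 was by far the most abundant of the 10 genes in each library. The length used was the union of all annotated exons of a gene, not the length of the transcript expressed. The order of genes, and the shares and quotients between genes below, rest on that length, and the intervals hold counting error alone. In untreated cells its level was 1143 CPM per kb, ahead of IGFBP6 (43.96), IGFBP7 (34.7), IGF2R (10.6), IGF1R (3.63), IGFBP3 (1.71), IGFBP2 (1.31), PAPPA (0.220) and IGFBP5 (0.185), with IGFBP1 at 0. The counting intervals of IGFBP3 and IGFBP2 overlapped, as did those of PAPPA and IGFBP5, and IGFBP5 overlapped IGFBP1. In the combination library the order was IGFBP4 (748 CPM per kb), IGFBP7 (116), IGFBP6 (25.9), IGF2R (17.7), IGFBP5 (12.6), IGFBP3 (9.43), IGF1R (4.98), IGFBP2 (1.498), PAPPA (0.781) and IGFBP1 (0.170), with no overlap between neighbours. IGFBP5 thus stood 9th of the 10 genes without drugs and 5th with both. With palbociclib alone, IGF1R overlapped IGFBP2 and PAPPA overlapped IGFBP1. With indisulam alone, neither IGF1R and IGFBP3 nor IGFBP3 and IGFBP5 were separated, and IGFBP2 overlapped PAPPA.

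**Figure D1:**
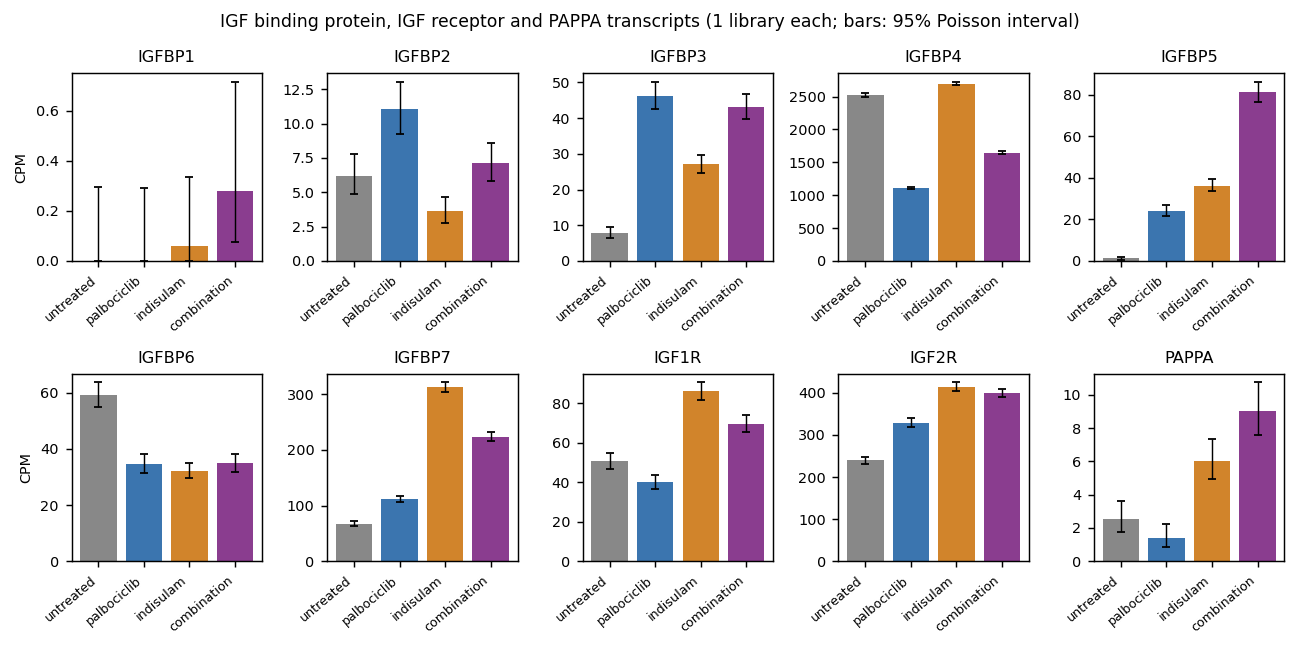
Level of each of the 10 genes in CPM (vertical axis, from 0, on a scale of its own in each panel) in the 4 libraries, 1 bar per library, with 95% Poisson intervals as error bars. IGFBP5 climbs from 1.19 CPM in the untreated library to 81.3 CPM in the combination library, whereas IGFBP4 and IGFBP6 are lower in the palbociclib and combination libraries than in the untreated one.

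IGFBP5, a binding protein that also attaches to the extracellular matrix, was nearly silent in untreated cells and called higher in all 5 comparisons. The gene (ENSG00000115461) lies at chr2:216672105-216695549 on the minus strand of GRCh38. It had 15 reads (1.19 CPM, 0.669 to 1.97) in the untreated library, 308 reads (24.3 CPM) with palbociclib, 607 reads (36.3 CPM) with indisulam and 1167 reads (81.3 CPM) with the combination. Every treated library was above the untreated one, and the combination library was above both single drugs, with no overlap of intervals. In bulk RNA, more cells with the transcript and more transcript per cell cannot be told apart. The log2 ratio to untreated was 4.27 (3.56 to 4.97) for palbociclib and 4.85 (4.15 to 5.54) for indisulam. Against the single drugs the combination was 3.34-fold above palbociclib (log2 1.74, 1.56 to 1.92) and 2.24-fold above indisulam (log2 1.16, 1.02 to 1.30). IGFBP5 was the only one of the 9 tested members called the same way for palbociclib without and with indisulam, which held for 3.32% of all tested genes, 2.06% in the same direction.

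The joint response of IGFBP5 looked different on the linear and the log2 scale. If the 2 single-drug differences in CPM were added to the untreated level, the result was 59.4 CPM (55.4 to 63.4), and the combination library exceeded it by 21.9 CPM (15.7 to 28.0). On the log2 scale the ratio in the combination fell short of the sum of both single-drug ratios by 3.10 (departure -3.10, -3.83 to -2.38). The untreated level in both sums rested on the 15 reads above. Fibroblast markers were read beside this result. All 3 of the list (COL1A1, LUM and DCN) had reads in every library, with a summed level of 2028 CPM untreated, 3363 CPM with palbociclib, 3856 CPM with indisulam and 3114 CPM with the combination. DCN was at 233, 551, 1681 and 1841 CPM in that order, and LUM was at 0.478, 5.12, 26.9 and 27.2 CPM, and both were called higher in every treated library, as IGFBP5 and IGFBP3 were. COL1A1, at 1795, 2807, 2148 and 1246 CPM, was not called against untreated and was lowest in the combination library, where it was called lower than with palbociclib (log2 -1.17). The part of these markers in the results was not tested.

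Promoter sequences are shown for 4 members that were called in at least 1 comparison, the binding proteins IGFBP5, IGFBP3 and IGFBP4 and the protease PAPPA. Each is the 250 bases before the gene start of the RefSeq table for GRCh38.p14, read 5′ to 3′ on the strand of the gene, and capitals mark matches on either strand to any of 6 motifs. The TATA box was searched as TATAAA and stood in 11.5% of all 35116 promoter windows of the table, which also include 50 bases after the start. The CCAAT box was searched under those letters and stood in 34.6% of windows. The GC box was searched as GGGCGG, with 45.0% of windows holding it. The AP-1 motif was searched as TGACTCA, found in 4.95% of windows. The E-box was searched as CACGTG, found in 7.26% of windows. The E2F motif was searched as TTTCGCGC, found in 0.515% of windows. Windows were found for 8 of the 10 members, all except IGFBP1 and IGFBP7.
IGFBP5, chr2:216695550-216695799, minus strand: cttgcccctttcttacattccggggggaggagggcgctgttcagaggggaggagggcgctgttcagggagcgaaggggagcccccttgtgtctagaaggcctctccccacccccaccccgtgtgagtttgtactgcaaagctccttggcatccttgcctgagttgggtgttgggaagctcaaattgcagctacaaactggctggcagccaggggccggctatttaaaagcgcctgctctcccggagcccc
IGFBP3, chr7:45921273-45921522, minus strand: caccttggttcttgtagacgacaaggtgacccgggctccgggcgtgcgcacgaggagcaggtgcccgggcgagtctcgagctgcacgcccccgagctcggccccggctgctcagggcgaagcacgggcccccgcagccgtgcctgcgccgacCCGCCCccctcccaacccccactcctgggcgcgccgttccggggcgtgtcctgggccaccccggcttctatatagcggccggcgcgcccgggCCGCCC
IGFBP4, chr17:40443200-40443449, plus strand: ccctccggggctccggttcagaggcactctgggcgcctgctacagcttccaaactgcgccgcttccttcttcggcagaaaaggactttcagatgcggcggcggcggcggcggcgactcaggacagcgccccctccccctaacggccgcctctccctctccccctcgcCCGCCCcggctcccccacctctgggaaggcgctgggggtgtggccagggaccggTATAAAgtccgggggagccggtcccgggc
PAPPA, chr9:116153541-116153790, plus strand: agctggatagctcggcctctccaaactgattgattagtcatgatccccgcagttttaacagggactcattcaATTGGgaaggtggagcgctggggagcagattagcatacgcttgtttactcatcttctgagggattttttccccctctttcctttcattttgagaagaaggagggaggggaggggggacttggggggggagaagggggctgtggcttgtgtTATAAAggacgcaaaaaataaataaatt
The IGFBP5 stretch held none of the 6 motifs. IGFBP3 had GC boxes, both on the strand opposite to the gene, beginning 98 and 6 bases before the start. The IGFBP3 window falls within the GENCODE span of the gene. IGFBP4 had a TATA box 29 bases before the start and a GC box, on the other strand, 83 bases before it. PAPPA had a TATA box 28 bases before the start and a CCAAT box, on the other strand, 178 bases before it. These matches describe the letters and do not show that a factor binds.

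IGFBP3, the main carrier of IGFs in blood, was called higher in all 3 treated libraries but did not differ between palbociclib and the combination beyond counting error. The gene (ENSG00000146674) lies at chr7:45912245-45921874 on the minus strand. It was at 7.81 CPM (98 reads) untreated, 46.2 CPM with palbociclib, 27.2 CPM with indisulam and 43.1 CPM with the combination. The palbociclib library was thus the highest and the untreated library the lowest. Ratios to untreated were 5.87-fold for palbociclib (log2 2.55, 2.25 to 2.86), 3.46-fold for indisulam (log2 1.79, 1.478 to 2.103) and 5.48-fold for the combination (log2 2.45, 2.15 to 2.76). The log2 ratio of combination to palbociclib was -0.10 (-0.26 to 0.06). IGFBP3 fell short of additivity on both scales, with a departure of -1.89 (-2.24 to -1.54) in log2 units and 43.1 CPM measured where the added differences give 65.5 CPM. The quotient of IGFBP5 to IGFBP3 per kilobase was 0.108 untreated, 0.371 with palbociclib, 0.945 with indisulam and 1.33 with the combination. It was thus lowest untreated and highest with the combination. Where it passes 1 depends on the exon lengths used, and with indisulam the intervals of both genes overlapped.

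IGFBP4, a binding protein that inhibits IGF signalling and the classical substrate of PAPPA, was the only member called lower in any of the 5 comparisons between libraries. Located at chr17:40443450-40457725 on the plus strand (ENSG00000141753), it was at 2520 CPM untreated, 1107 CPM with palbociclib, 2694 CPM with indisulam and 1649 CPM with the combination. It ranked 25th, 86th, 23rd and 42nd among all genes by CPM in these libraries. Both palbociclib-containing libraries were low and both others were high. With palbociclib alone IGFBP4 was 2.28-fold lower (log2 -1.19, -1.22 to -1.16). The combination was also below untreated (log2 -0.61, -0.64 to -0.59) and below indisulam (log2 -0.71, -0.73 to -0.69), but neither difference reached 2-fold. Indisulam alone gave a log2 ratio of 0.10 (0.08 to 0.12).

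Because of IGFBP4, the summed level of the 7 binding protein genes was lowest with palbociclib alone. The sum was 2662 CPM untreated, 1335 CPM with palbociclib, 3106 CPM with indisulam and 2039 CPM with the combination. Without IGFBP4 the sum was lowest in the untreated library, at 141 CPM, against 228 CPM with palbociclib, 412 CPM with indisulam and 390 CPM with the combination. Per kilobase, IGFBP4 made up 93.3% of the binding protein pool in untreated cells and 83.4%, 86.0% and 81.9% with palbociclib, indisulam and the combination. Among the other 6 genes IGFBP6 was the leading one without drugs, with 53.7% against 42.4% for IGFBP7. IGFBP7 led in every treated library, with 58.0% for palbociclib, 81.7% for indisulam and 70.0% for the combination. IGFBP5 held 0.226% of this remainder untreated and 7.60% with both drugs.

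**Figure D2:**
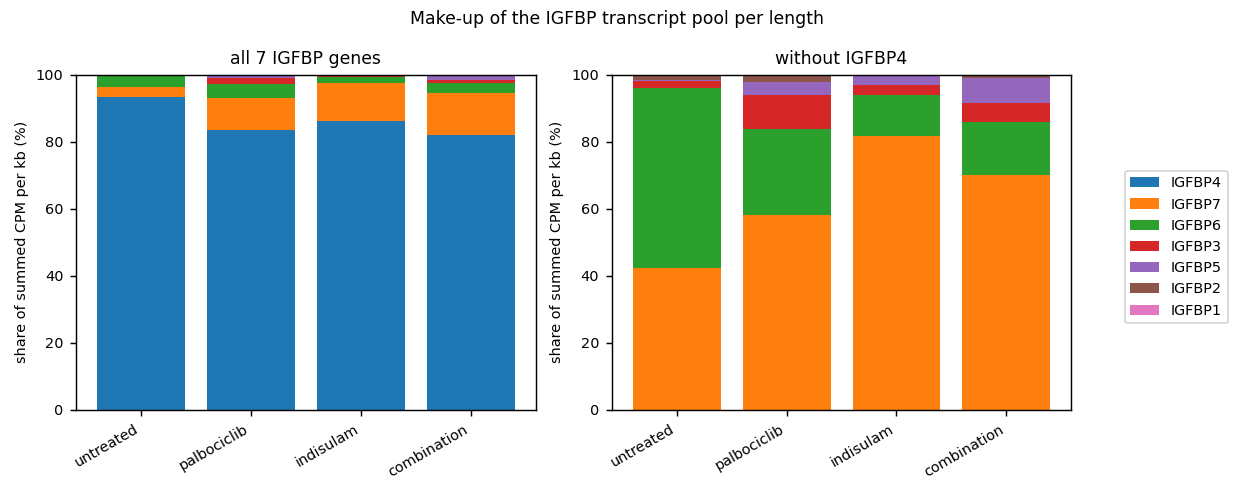
Share (%) of each binding protein gene in the summed CPM per kb of the family, 1 stacked bar per library, for all 7 genes (left) and without IGFBP4 (right). IGFBP4 fills at least 81.9% of each bar on the left, and on the right IGFBP6 leads in the untreated library and IGFBP7 in the 3 treated ones.

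IGFBP7, which binds IGFs weakly and is secreted by senescent cells, was called higher with indisulam whether or not palbociclib was present. The gene (ENSG00000163453) lies at chr4:57030773-57110385 on the minus strand. Its level was 67.0 CPM untreated, 112 CPM with palbociclib, 312 CPM with indisulam and 224 CPM with the combination. Indisulam alone gave the highest level, and the 4 intervals did not overlap. The ratio to untreated was 4.66-fold for indisulam (log2 2.22, 2.12 to 2.33) and 3.33-fold for the combination (log2 1.74, 1.63 to 1.85), while palbociclib alone stayed under 2-fold (log2 0.74, 0.61 to 0.86). The combination stood just at the threshold against palbociclib (2.00-fold, log2 1.00, 0.91 to 1.09), a call lost in 5 of 10 alternative settings. It was below indisulam alone (log2 -0.48, -0.55 to -0.42). The departure from additivity was -1.22 (-1.36 to -1.08) on the log2 scale. POLR2B, a subunit gene of RNA polymerase II, overlaps IGFBP7 on the opposite strand and had 1868, 2242, 2748 and 2540 reads in the untreated, palbociclib, indisulam and combination libraries, so its counts spread less than those of IGFBP7 (841, 1417, 5220 and 3210 reads). The strand setting of the counting is not given in the sources used here, and a part of POLR2B reads in the count was not tested.

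IGFBP6 prefers IGF2 as its ligand and was lower in all treated libraries without reaching 2-fold. Its levels were 59.2 CPM untreated, 34.7 CPM with palbociclib, 32.3 CPM with indisulam and 34.9 CPM with the combination. Log2 ratios to untreated were -0.77 (-0.94 to -0.60), -0.87 (-1.03 to -0.71) and -0.76 (-0.92 to -0.60), and the treated libraries lay close together. If both single-drug differences were added, 7.75 CPM (1.75 to 13.7) would remain, against 34.9 CPM measured. The gene (ENSG00000167779) lies at chr12:53097436-53102345 on the plus strand.

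IGFBP2, which also binds both IGFs, was not called in any comparison, and its levels with the single drugs lay on either side of the untreated one. It read 6.21 CPM untreated, 11.03 CPM with palbociclib, 3.65 CPM with indisulam and 7.10 CPM with the combination. On the log2 scale the palbociclib library stood 0.82 (0.43 to 1.22) above untreated, the indisulam library had a ratio of -0.76 (-1.23 to -0.28) and the combination library one of 0.19 (-0.23 to 0.61). The interval for the combination held 0, and the departure from additivity was 0.13 (-0.47 to 0.73). IGFBP2 (ENSG00000115457, chr2:216632828-216664436, plus strand) is the chromosomal neighbour of IGFBP5, with 7668 bp between the ends of the genes and no protein-coding gene between them. The neighbours nonetheless had log2 ratios of opposite sign with indisulam, -0.76 and 4.85.

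IGFBP1, a binding protein made mainly by liver and decidua, had 0 reads untreated, 0 with palbociclib, 1 with indisulam and 4 with the combination. It lies 18584 bp from IGFBP3, again with no protein-coding gene between, at chr7:45888360-45893660 on the plus strand (ENSG00000146678). The 2 libraries at 0 allow up to 0.239 CPM untreated and 0.236 CPM with palbociclib by the floor of 3 counts, whereas the two-sided Poisson intervals drawn in the plot of levels end at 0.294 and 0.291 CPM, and 4 reads with the combination are 0.279 CPM (0.0759 to 0.713). A difference was not detectable at this depth.

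PAPPA, the metalloprotease that cuts IGFBP4 and other binding proteins, was low throughout and called higher with indisulam whether or not palbociclib was present. The gene (ENSG00000182752) lies at chr9:116153791-116402321 on the plus strand. It had 32 reads untreated (2.55 CPM, 1.74 to 3.60), 18 with palbociclib (1.42 CPM), 101 with indisulam (6.04 CPM) and 130 with the combination (9.05 CPM). The 2 libraries with indisulam were high and the 2 without were low. The ratio to untreated was 2.33-fold for indisulam (log2 1.22, 0.66 to 1.78) and 3.48-fold for the combination (log2 1.80, 1.26 to 2.35). For palbociclib the log2 ratio was -0.81 (-1.61 to -0.02), so that the combination exceeded palbociclib by 6.13-fold (log2 2.62, 1.93 to 3.30). PAPPA was the only member called above additivity, with a departure of 1.39 (0.51 to 2.27) on the log2 scale, and its 9.05 CPM in the combination exceeded the added differences of 4.91 CPM by 4.14 CPM (1.90 to 6.38). At the mean level of PAPPA, between 1 and 5 CPM, the robust spread of the departure over all genes was 0.88.

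Set against its substrate, PAPPA remained scarce. The quotient of PAPPA to IGFBP4 per kilobase was 0.000193 untreated, 0.000244 with palbociclib, 0.000427 with indisulam and 0.00105 with the combination, the highest of the 4. STC1 and STC2, secreted stanniocalcins that inhibit PAPPA, were higher in the same libraries. STC2 was at 92.0 CPM untreated, 98.6 CPM with palbociclib, 404 CPM with indisulam and 445 CPM with the combination, which was 4.39-fold above untreated for indisulam and 4.83-fold for the combination. STC1 was at 23.0, 21.8, 45.4 and 108 CPM in the same order, and was called only in the combination, 4.69-fold above untreated, 4.95-fold above palbociclib and 2.38-fold above indisulam. The quotient of STC2 to PAPPA per kilobase was 82.6, 159.1, 153 and 112, so the inhibitor transcript was well above that of the protease in every library.

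PAPPA2, the related protease of IGFBP3 and IGFBP5, was singled out after its values were seen, since its mean was below the 5 CPM set for naming genes other than members. It had 6 reads untreated, 7 with palbociclib, 30 with indisulam and 126 with the combination, a log2 ratio of 4.01 (2.97 to 5.05) for the combination to untreated and 2.24 (1.69 to 2.80) for the combination to indisulam. Per kilobase, PAPPA2 was at 0.199 of PAPPA untreated and at 1.03 of it in the combination. HTRA1, a serine protease that cuts IGFBP5, was higher with palbociclib alone, at 333 CPM against 119 CPM untreated (2.79-fold), and read 99.0 CPM with indisulam and 130 CPM with the combination. Of the 6 proteases and inhibitors tested, 1 was called higher with palbociclib, 2 with indisulam and 3 with the combination, and none was called lower against untreated. Of all tested genes, 5.96%, 8.44% and 13.0% were called higher. PAPPA2 is counted with indisulam and with the combination. It was at 0.478 CPM untreated and 0.552 CPM with palbociclib, so it passed the filter on mean level only through the libraries with indisulam. ADAM12 and CTSD were not called in any of the 5 comparisons.

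Neither IGF receptor gene reached 2-fold in any comparison. IGF1R (ENSG00000140443, chr15:98648539-98964530, plus strand) was at 50.7 CPM untreated, 40.1 CPM with palbociclib, 85.9 CPM with indisulam and 69.4 CPM with the combination. The palbociclib library was the lowest and the indisulam library the highest. Log2 ratios to untreated were -0.34 (-0.50 to -0.17), 0.76 (0.63 to 0.90) and 0.45 (0.31 to 0.60), and the departure from additivity was 0.03 (-0.18 to 0.23). INSR, the insulin receptor, was not called in any comparison, and the quotient of IGF1R to INSR per kilobase was 1.15, 0.879, 1.40 and 1.59 in the untreated, palbociclib, indisulam and combination libraries.

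IGF2R (ENSG00000197081, chr6:159969082-160113507, plus strand) was higher in all 3 treated libraries, below 2-fold in each. Its level was 240.0 CPM untreated, 329 CPM with palbociclib, 415 CPM with indisulam and 399.8 CPM with the combination. Log2 ratios to untreated were 0.46 (0.39 to 0.52), 0.79 (0.73 to 0.85) and 0.74 (0.67 to 0.80). The 2 libraries with indisulam lay close together (log2 ratio of combination to indisulam -0.05, -0.10 to -0.00). Per kilobase, IGF2R exceeded IGF1R by 2.92-fold untreated, 5.06-fold with palbociclib, 2.98-fold with indisulam and 3.55-fold with the combination. CHP1P2, a pseudogene inside IGF2R on the same strand, had 39, 33, 226 and 276 reads in that order, against 3013 to 6933 reads of IGF2R. A part of this overlap in the IGF2R count was not tested.

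Counted over the comparisons, IGFBP5 was called in every one, and IGFBP3, IGFBP7 and PAPPA in 3 each. The 5 comparisons reuse the same 4 libraries, so repeated calls of a gene are not independent. The share of all tested genes called as often is not given here. The members were chosen with earlier results of these data known. IGFBP5, which the question set apart, is among the members called in each comparison below. With palbociclib, 3 of the 9 tested members were called, 2 higher and 1 lower, against 10.9% of all tested genes (5.96% higher and 4.95% lower). With indisulam 4 members were called, all higher, against 15.2% of genes in either direction and 8.44% higher. With the combination 4 members were again called against untreated, all higher, against 23.5% of genes in either direction and 13.0% higher. Those 4 were IGFBP3, IGFBP5, IGFBP7 and PAPPA under indisulam as under the combination, and these comparisons share the untreated library. Against palbociclib, 3 members were called in the combination (IGFBP5, IGFBP7 and PAPPA), all higher, with 17.0% of genes in either direction and 9.62% higher. Against indisulam only IGFBP5 was called, higher, with 8.28% of genes in either direction and 5.09% higher. Called the same way for indisulam without and with palbociclib were IGFBP5, IGFBP7 and PAPPA, 3 of 9 and all higher, against 8.55% of genes in either direction and 4.88% higher. For IGFBP7 the call against palbociclib stood just at the threshold and was lost in 5 of 10 alternative settings. PAPPA was lost when a mean of 5 CPM was required. The departure from additivity reached 2-fold for 4 members, against 8.05% of genes, with PAPPA above (4.11% of genes) and IGFBP3, IGFBP5 and IGFBP7 below (3.93% of genes).

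The median of the members lay above that of all genes in these libraries. This describes 9 genes, IGFBP5 included, that were chosen by name with earlier results of these data known. Their median log2 ratio was 0.46 for palbociclib, 0.79 for indisulam and 0.74 for the combination against untreated, whereas the medians over all tested genes were -0.02, 0.06 and 0.05. Single members spread widely around these medians, from -1.19 (IGFBP4) to 4.27 (IGFBP5) with palbociclib. For other genes of the IGF axis the 3 medians were -0.06, 0.08 and 0.01 over 36 tested genes.

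**Figure D3:**
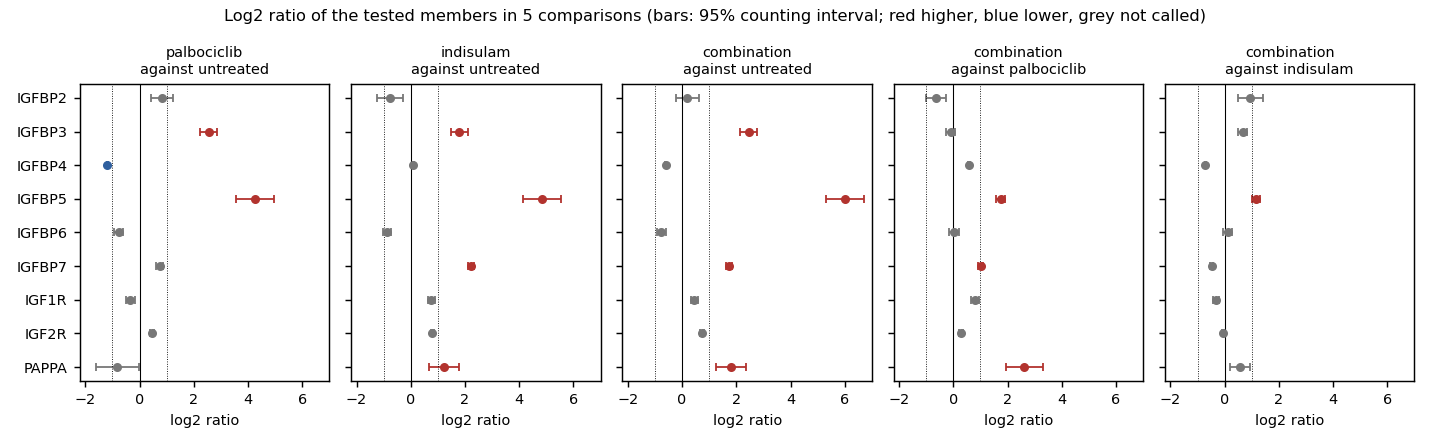
Log2 ratio (horizontal axis) of the 9 tested members in the 5 comparisons, with 95% counting intervals as bars, the 2-fold threshold as dotted lines, and called genes in red (higher) or blue (lower). IGFBP5 is called in all 5 panels, IGFBP4 is called lower in the first, and IGFBP2, IGFBP6, IGF1R and IGF2R are grey in each.

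**Figure D4:**
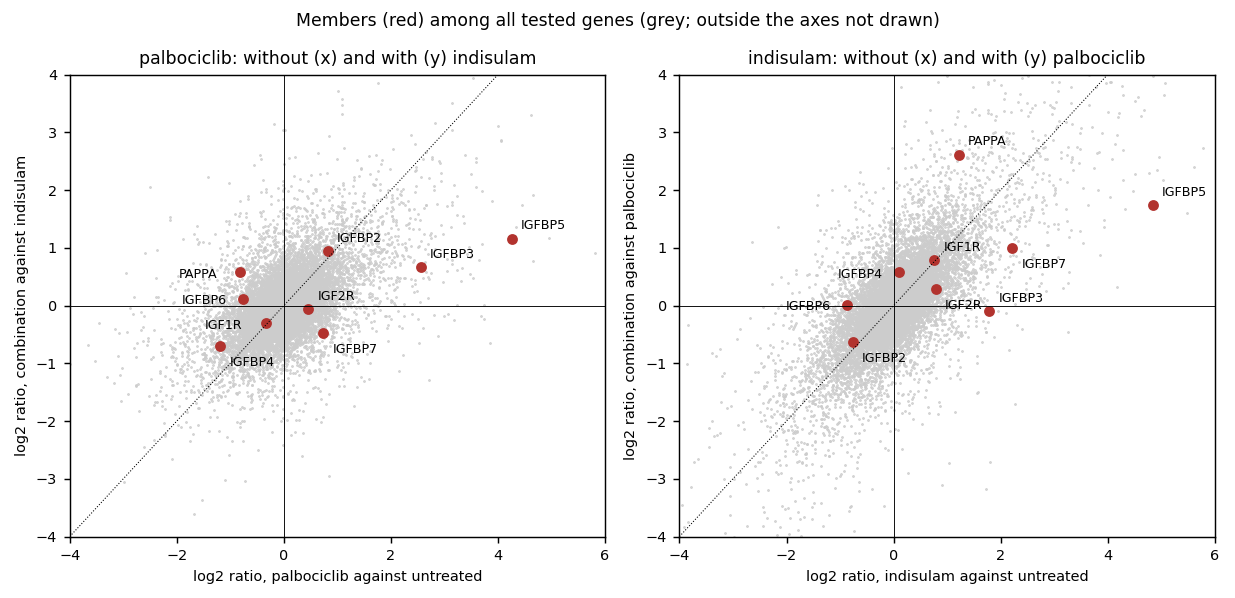
Log2 ratio for palbociclib (left) and indisulam (right) without the other drug (horizontal axis) and with it (vertical axis), for the 9 tested members (red) and all tested genes (grey), with a dotted line where both are equal. The ratios on the 2 axes of a panel share no library. IGFBP5 lies far to the right in both panels, at 4.27 and 1.16 on the left and at 4.85 and 1.74 on the right, and PAPPA lies above the line in both.

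Among the ligands IGF2 was the one measured, and it was lower wherever indisulam was present. It was at 20.4 CPM untreated, 17.6 CPM with palbociclib, 5.33 CPM with indisulam and 2.16 CPM (31 reads) with the combination. The combination was 9.18-fold below untreated (log2 -3.20, -3.72 to -2.68), and also 7.91-fold below palbociclib and 2.42-fold below indisulam alone. Palbociclib alone was not called (log2 -0.21, -0.47 to 0.04). IGF1 had no more than 2 reads in any library, INS had none, and IGFALS, the partner of IGFBP3 and IGFBP5 in the ternary complex with IGFs, had no more than 3. INS-IGF2, a read-through gene that overlaps IGF2 on the same strand, was at 0 in all libraries. Ambiguous reads were tallied apart from the genes (2.41% to 2.63% of reads), and a part of this overlap in that tally was not tested.

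Downstream of the receptors, most listed genes were not called, and the same held for all tested genes. Of these, 10.9% were called with palbociclib, 15.2% with indisulam and 23.5% with the combination against untreated. Among 5 tested receptor adaptors, IRS2 was lower with palbociclib and higher with indisulam, with 20.1 CPM untreated, 8.90 CPM with palbociclib, 60.4 CPM with indisulam and 24.5 CPM with the combination. Its departure from additivity was -0.13 (-0.49 to 0.24). SHC1, another adaptor, was at 820 CPM untreated and 355 CPM with the combination, 2.31-fold lower. PYGO2 overlaps SHC1 on the same strand and had 389 to 614 reads, and a part of this overlap in the count was not tested. Of 10 tested PI3K and AKT genes, PIK3R3, a regulatory subunit of PI3K, was at 15.7 CPM untreated, 98.7 CPM with palbociclib, 10.8 CPM with indisulam and 36.4 CPM with the combination. It was 6.27-fold above untreated with palbociclib and 2.31-fold with the combination. PIK3CD, a catalytic subunit, was at 2.95, 4.02, 7.84 and 10.2 CPM and was called higher with indisulam (2.62-fold) and with the combination (3.42-fold). CLSTN1 overlaps PIK3CD on the opposite strand and had 2389 to 3651 reads, against 37 to 147 reads of PIK3CD. The strand setting is not given, and a part of CLSTN1 reads in the PIK3CD count was not tested. PIK3R1, another regulatory subunit, was called in the comparison of combination to palbociclib alone, 2.32-fold lower. None of 3 FOXO genes, transcription factors held in check by AKT, was called in any comparison.

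Relatives that carry an IGFBP domain but are not classical binding proteins moved in both directions, with 7 of 10 tested. CCN3, a matricellular protein, was called higher in every treated library and was at 4.38 CPM untreated, 15.8 CPM with palbociclib, 24.0 CPM with indisulam and 46.5 CPM with the combination (10.5-fold above untreated). KAZALD1 was called lower in every treated library, at 16.5 CPM untreated and 4.53 CPM with the combination (3.60-fold lower). CCN4 was 2.28-fold higher with the combination, and CCN5 was called only against palbociclib, 2.09-fold lower in the combination. IGF2BP3, 1 of 3 RNA-binding proteins named for binding IGF2 transcripts, was 2.95-fold higher with the combination than untreated. It had 45 to 154 reads, and MALSU1, which overlaps it on the opposite strand, had 261 to 345 reads. A part of MALSU1 reads in the IGF2BP3 count was not tested. Over the 36 tested genes of the axis, 6 were called with palbociclib, 7 with indisulam and 11 with the combination, against 10.9%, 15.2% and 23.5% of all tested genes.

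**Figure D5:**
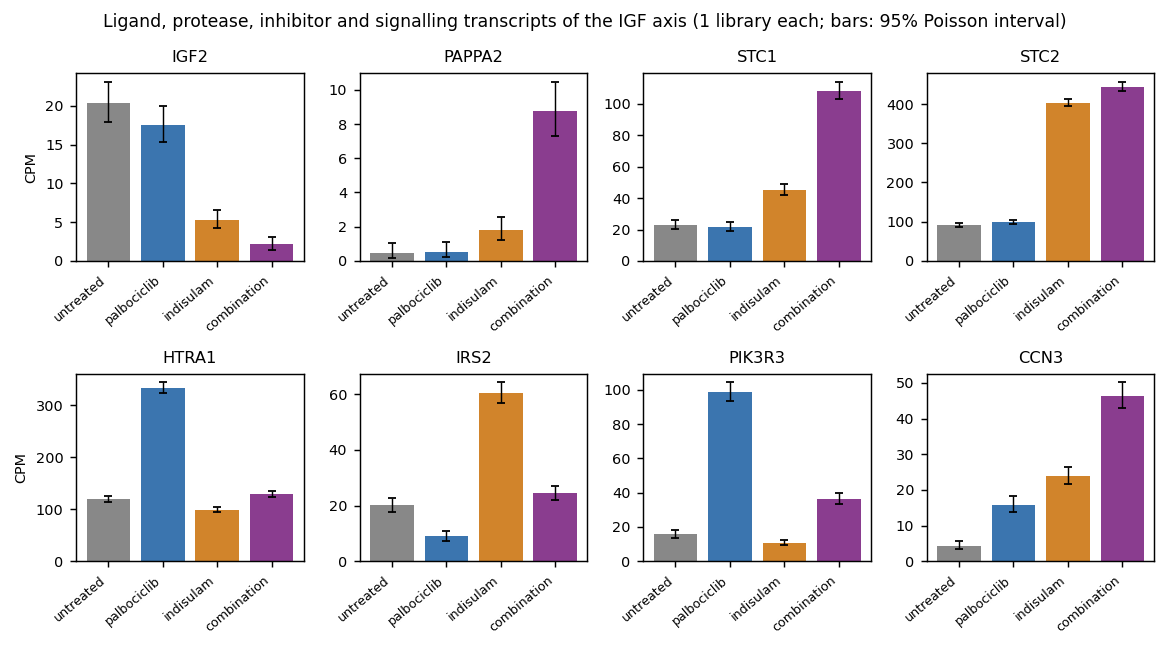
Level in CPM (vertical axis, from 0, on a scale of its own in each panel) of 8 ligand, protease, inhibitor, signalling and related genes in the 4 libraries, with 95% Poisson intervals as error bars. IGF2 falls from 20.4 CPM untreated to 2.16 CPM with both drugs, PAPPA2, STC1 and CCN3 are highest with both drugs, and HTRA1 and PIK3R3 peak with palbociclib alone.

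To place the members among other genes, the log2 ratios to untreated of palbociclib, indisulam and the combination were compared by Euclidean distance over the 11318 tested genes with a symbol and a mean of at least 5 CPM. The 3 values share the untreated library. VNN1 (distance 0.68), IDO1 (0.78) and ARNT2 (1.21) were nearest to IGFBP5, and VNN1 and IDO1 were at or under the floor of 3 reads in the untreated library. SBF2-AS1 (0.26), VCAN (0.42) and PCDHB16 (0.57) were nearest to IGFBP3. For IGFBP7 these were FAM111B (0.17), SLIT2 (0.31) and F3 (0.35), the last of which encodes tissue factor and was at 293 CPM untreated and 1074 CPM with indisulam.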

How the data were processed

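RNA of 4 SUM159 libraries (untreated, palbociclib, indisulam and combination, grouped by their labels) was analysed. The authors deposited counts of reads per Ensembl gene, not normalized. The submitters' processing notes name TopHat2 2.1, HTSeq and GRCh38. The strand setting and the annotation release are not given in the sources used here, nor is it stated whether technical duplicates were pooled. Tallies of reads assigned to no gene (9.61% to 10.1% of reads) were kept apart from the genes.

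Counts were divided by the library total of gene counts (12555908, 12691481, 16712174 and 14359529 reads in the order above) and multiplied by the mean total, and log2 ratios were formed with a pseudocount of 1 such scaled count. Of 29056 genes with a count, 14269 had a mean of at least 1 CPM and were tested. A gene was called at 2-fold or more with a 95% interval from Poisson counting that excluded a ratio of 1. Intervals and the floor of 3 counts reflect counting error alone, because without molecular identifiers PCR copies of a molecule are counted as separate reads. The procedure was tested on simulated Poisson counts, the model that its intervals assume, and variation between cultures was not simulated. No p-value was computed, there being 1 library per condition. Levels per kilobase used the union of exons in GENCODE release 44.

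The members and gene lists were chosen with earlier results of these data known. All 10 members were named. Of the axis lists, genes called in at least 1 comparison with a mean of 5 CPM or more were named, at most 4 per list in order of their largest ratio to untreated, and some listed genes are not reported here. Nearest genes were given for the 3 members with the largest ratio. Overlapping genes of members were given where they had at least 20 counts, and those of axis genes only in part. Promoters came from a RefSeq table on GRCh38.p14. Alternatives were TMM and upper-quartile factors (edgeR 4.0.16) and median-ratio size factors (DESeq2 1.42.0, both in R 4.3.3), totals without mitochondrial genes, other filters, thresholds and pseudocounts. Python 3.11.15, numpy 2.4.6, pandas 2.3.3, scipy 1.17.1 and matplotlib 3.10.9 were used.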

Additional observations from a re-analysis of the deposited data

Results flagged for a closer look

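Palbociclib gave log2 ratios of opposite sign without and with indisulam, both intervals excluding 0, for 4 of the genes considered here. These were the members and the other axis genes called in at least 1 comparison, and 3 of the 4 are members. CTSD, IRS1 and AKT1, axis genes not called in any comparison, did the same. How many of all tested genes did so is not given here, so the count shows nothing particular to the members. IGFBP6 also had opposite signs (-0.77 and 0.11), but its interval with indisulam held 0. For IGFBP7 the ratio was 0.74 without indisulam and -0.48 with it, a difference of -1.22. For IGF2R it was 0.46 and -0.05, a difference of -0.51. PAPPA went the other way, with -0.81 and 0.58, a difference of 1.39. For PIK3R1 the ratio was 0.35 without and -0.12 with indisulam, a difference of -0.46. None of these single ratios reached 2-fold. The difference is the departure from additivity given in the report, where it was called for IGFBP7 (-1.36 to -1.08) and PAPPA (0.51 to 2.27) by counting error. With 1 library per condition, no difference was tested against variation between replicates.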

How the results depend on the processing

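The limit of these data is the single library per condition, so counting error is the only error that could be given. No paired analysis was possible because each condition had 1 library. Across 306 recomputed log2 ratios of members, 292 moved by less than their counting interval, 14 moved by more and 0 of the called ones changed sign. The 4 changes of sign were all for IGFBP6 in the combination against palbociclib (0.01 in the report), at -0.07 with TMM, -0.05 with upper-quartile, -0.06 with DESeq2 factors and -0.00 without mitochondrial genes. The call of IGFBP7 in the combination against palbociclib was lost in 5 of 10 alternatives (TMM, upper-quartile and DESeq2 factors, totals without mitochondrial genes, pseudocount 5). PAPPA was lost when a mean of 5 CPM was required, since it did not pass that filter, and the other member calls held in all 10.

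At 1.5-fold, 7 of the 9 tested members were called (4 higher, 3 lower) for palbociclib, 8 (6 and 2) for indisulam and 7 (5 and 2) for the combination against untreated. For the combination, 5 (4 and 1) were called against palbociclib and 4 (3 and 1) against indisulam. Calls over all 14269 tested genes rose as well, to 3573, 4510, 6085, 4713 and 3196 in the 5 comparisons. Of the 36 other axis genes tested, 12, 14 and 17 (9 and 8) were then called against untreated. When both drugs were set against indisulam alone, 14 axis genes (6 and 8) passed the 1.5-fold threshold. At 2-fold, the tested genes called were 1558, 2162, 3360, 2429 and 1181 in the 5 comparisons, and 834, 1212, 2104, 1396 and 544 with a mean of at least 5 CPM. Without a filter the last comparison gave 2133. The summed binding protein level was 2702, 1376, 3032 and 1997 CPM in the untreated, palbociclib, indisulam and combination libraries with TMM factors, and 2830, 1440.3, 3266 and 2182 CPM without mitochondrial genes. The share of IGFBP4 in reads, without length correction, was 94.7% untreated, 86.7% with indisulam and 80.9% with the combination.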
